A study of Mus musculus with 18 samples.

Results

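The clustered protocadherins are 3 neighbouring gene families, Pcdha, Pcdhb and Pcdhg, on mouse chromosome 18. All CpG sites from position 36930001 to 37842001 of the build GRCm38 (1-based) were taken as members, with at least 10 reads in both pools of a tissue. This gave 1658 sites of 1876099 tested in gonadal adipose tissue, 1334 of 1569349 in hypothalamus and 1403 of 1628817 in liver, and 1233 sites were tested in all 3 tissues. The deposited tables list 1692, 1456 and 1484 sites there, so 34 adipose, 122 hypothalamic and 81 hepatic sites fell below the read minimum. The alpha stretch, from the first to the last annotated Pcdha base (36930285 to 37188897), held 434, 375 and 382 tested sites in the 3 tissues in that order. The beta stretch (37264998 to 37521419) held 238, 192 and 187, and the gamma stretch (37661775 to 37841873) held 837, 656 and 731. The remaining sites lie between the stretches.

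Clustered protocadherins are cell adhesion molecules of the neuronal surface. In the alpha and gamma families each variable exon has its own promoter and is spliced to constant exons that the whole family shares, while the beta genes are complete in 1 exon. Single neurons choose a few of these promoters, largely at random, and the combination of isoforms lets a neuron tell its own processes from those of others. Promoter choice is known to depend on DNA methylation and on looping by CTCF and cohesin. The last genes of the alpha and gamma families, the C-type genes Pcdhac1, Pcdhac2, Pcdhgc3, Pcdhgc4 and Pcdhgc5, are less subject to random choice.

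The study exposed pregnant C57BL/6 mice to bisphenol A (BPA), an oestrogenic plasticiser, at 5 mg/kg/day in corn oil by oral gavage from day 1 to day 20 after conception, and gave control dams corn oil alone. Male offspring were sampled at 3 weeks of age. Gonadal adipose tissue, hypothalamus and liver were each taken from 3 control and 3 BPA-exposed offspring, 18 samples in all, which came from 3 litters of control and 4 of BPA dams (the labels do not say which sample came from which). Sample titles call the controls WT, and all animals are of the same strain with no engineered allele named.

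The assay was reduced representation bisulfite sequencing, which reads CpG-rich fragments cut by MspI, so most of the cluster between these fragments was not seen. The authors deposited each group of 3 samples as 1 pool. A level below is therefore a value of such a pool, without error between animals, and all intervals and p-values cover the counting of reads only. Since the PCR reads carry no molecular identifiers and may be copies of one molecule, even these are too narrow. The pool numbered 0 was read as control and the pool numbered 1 as BPA from the order of names in a label. If that order were reversed, every BPA direction below would turn.

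Median depth in the cluster was 139 reads in the control and 169.5 in the BPA pool of adipose tissue, 105 and 108.5 in hypothalamus, and 155 and 146 in liver. Among markers listed for hepatocytes, adipocytes and neurons, 6 of 6 hepatocyte genes with tested sites were least methylated in liver. So were 6 of 8 adipocyte genes in adipose tissue and 7 of 8 neuronal genes in hypothalamus. The glial lists did not follow: 2 of 4 oligodendrocyte genes and 1 of 4 astrocyte genes were lowest in hypothalamus, and 3 astrocyte genes in adipose tissue. Some markers are thinly covered, such as Alb with 1 site and Apob with 2. These are bulk tissues, so a difference in the mix of cells and a difference within a cell type cannot be told apart.

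Methylation of the cluster was intermediate. The mean level over its sites was 50.03% in the control pool of adipose tissue, 46.6% in hypothalamus and 42.0% in liver, and 49.5%, 46.5% and 41.8% in the BPA pools. Sites between 20% and 80% made up 52.7%, 50.7% and 55.0% of the cluster in the 3 control pools. Over all nuclear sites that share was 22.2%, 18.4% and 22.0%, and over the rest of chromosome 18 it was 21.4%, 18.0% and 21.2%. No test was made of this difference.

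**Figure D1:**
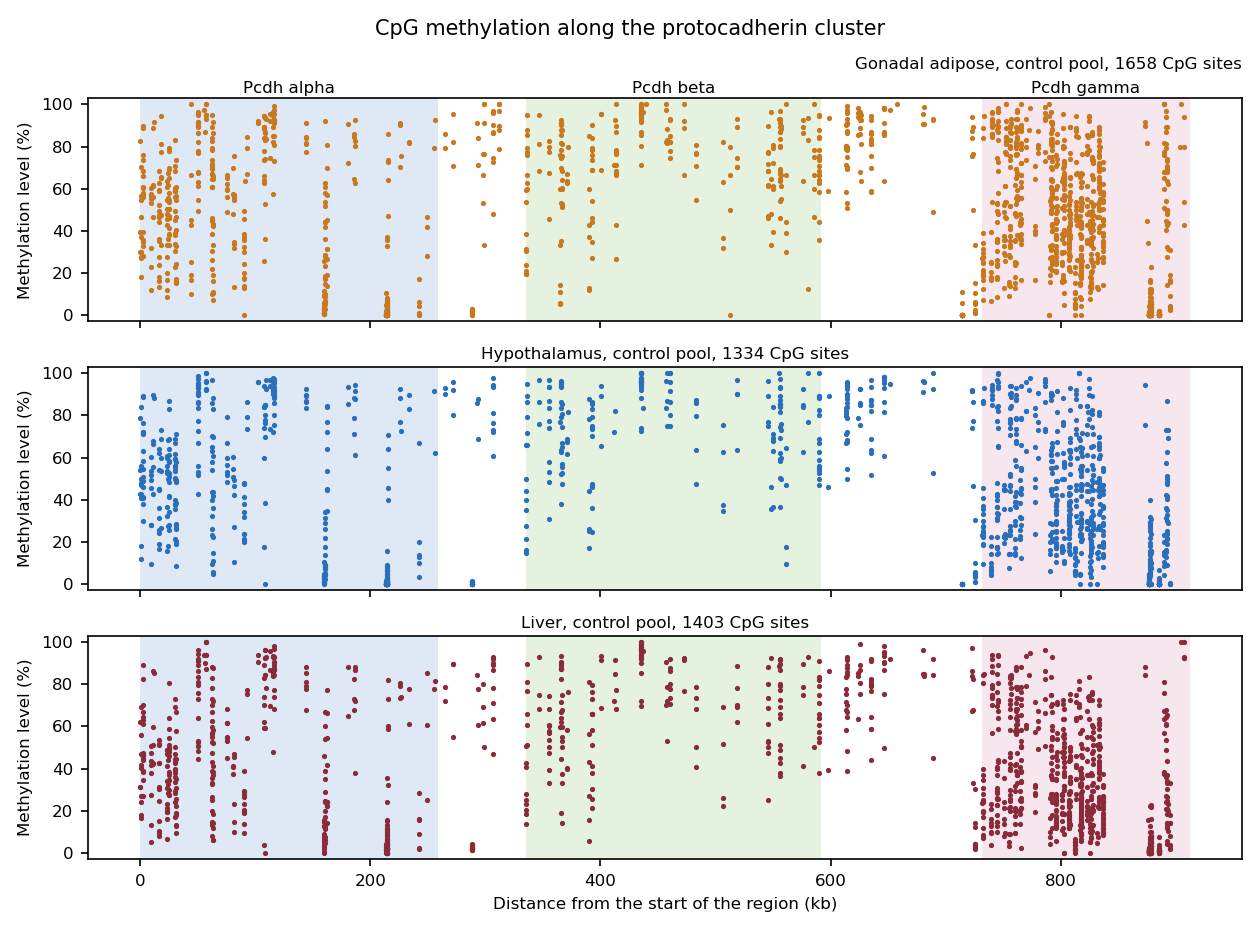
Methylation level (%) of each tested CpG site in the control pools against distance from the start of the region (kb), 1 panel per tissue, with the alpha, beta and gamma stretches shaded. Sites form columns at gene starts, and the lowest columns lie at the C-type genes at the right end of the alpha and gamma stretches.

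The 3 families differed in level. Beta was the most methylated, at 71.2% in adipose tissue, 73.3% in hypothalamus and 66.9% in liver. Alpha stood at 46.7%, 45.2% and 42.8% and gamma at 44.1%, 37.0% and 32.1%. Thus gamma spread most between tissues and alpha least. Over sites tested in all 3 tissues the gamma means were 42.2%, 38.0% and 30.4%, the beta means 74.4%, 75.4% and 67.3%, and the alpha means 46.5%, 46.1% and 42.2%.

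Levels within a family were read in gene start windows, from 500 bp before to 2500 bp after each annotated start, which cover the variable exon. The genes of the cluster are taken to lie on the plus strand, as is known for mouse. Of 58 protocadherin genes, 7 had no tested site (Pcdha6, Pcdha9, Pcdhb4, Pcdhb6, Pcdhb8, Pcdhb11 and Pcdhb19), and 39 had at least 5 in each tissue, 11 alpha, 6 beta and 22 gamma. The variable exons are paralogs, and reads could be shared between near-identical copies. The overlapping models Gm37013, Gm38666 and Gm38667 run through the whole cluster and share its sites.

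Among alpha genes, ranked over windows with at least 5 sites in every tissue, after the C-type genes, Pcdha12 had the lowest window, at 29.2% in control adipose tissue, 31.8% in hypothalamus and 23.3% in liver. The highest alpha window was that of Pcdha10 (59.7%, 59.4% and 57.1%), followed by Pcdha1 (51.6%, 54.1% and 47.5%) and Pcdha2 (53.9%, 52.6% and 45.3%). In beta the lowest were Pcdhb1 (54.9%, 53.4% and 45.9%), Pcdhb5 (56.6%, 58.3% and 48.5%) and Pcdhb2 (63.6%, 74.6% and 64.2%). The highest by that ranking in beta were Pcdhb17 (76.9%, 75.1% and 67.6%), Pcdhb22 (71.5%, 70.0% and 67.1%) and Pcdhb10 (71.9%, 72.8% and 62.4%). These ranks are by the mean over the 3 control pools, and without values per animal the order of neighbours is not established. Pcdhb2, listed among the lowest by that mean, was above Pcdhb22 and Pcdhb10 in hypothalamus. Windows that lacked 5 sites in some tissue are not ranked, and of these Pcdhb14 had 79.6% in adipose tissue and Pcdhb7 78.9% in liver.

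Gamma held both extremes of the 39 windows by their mean over the 3 control pools. Pcdhga7 was the highest, at 88.6% in adipose tissue, 86.6% in hypothalamus and 75.9% in liver over 6 sites. Pcdhgb2 (64.0%, 53.0% and 52.4%) and Pcdhga2 (60.6%, 51.0% and 52.6%) were the next in gamma by that mean. In hypothalamus, however, Pcdhgb7 (55.5%), Pcdhga6 (55.3%), Pcdhga4 (55.1%) and Pcdhga3 (53.5%) stood above them. In adipose tissue Pcdhgc5 (74.9%) stood above both and Pcdhgb1 (61.2%) above Pcdhga2. Within 1000 bp either side of the start, Pcdhgb2 had only 32.4%, 30.1% and 25.2% and Pcdhga2 39.7%, 32.7% and 32.7%. The lowest gamma mean outside the C-type genes was that of Pcdhga12, the last variable gene before them, at 43.0%, 29.6% and 19.6%. In adipose tissue alone Pcdhga1 (34.1%), Pcdhga10 (34.6%), Pcdhgb6 (37.7%) and Pcdhga11 (40.6%) were lower. The 12 Pcdhga windows had medians of 45.2%, 42.7% and 35.4%, and the 7 Pcdhgb windows 58.5%, 45.2% and 37.9%. Window levels ran together across tissues, with Pearson's r of 0.914 between adipose tissue and hypothalamus, 0.947 between adipose tissue and liver and 0.943 between hypothalamus and liver over the 39 windows. These windows share libraries and sequence, so the coefficients are a description.

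**Figure D2:**
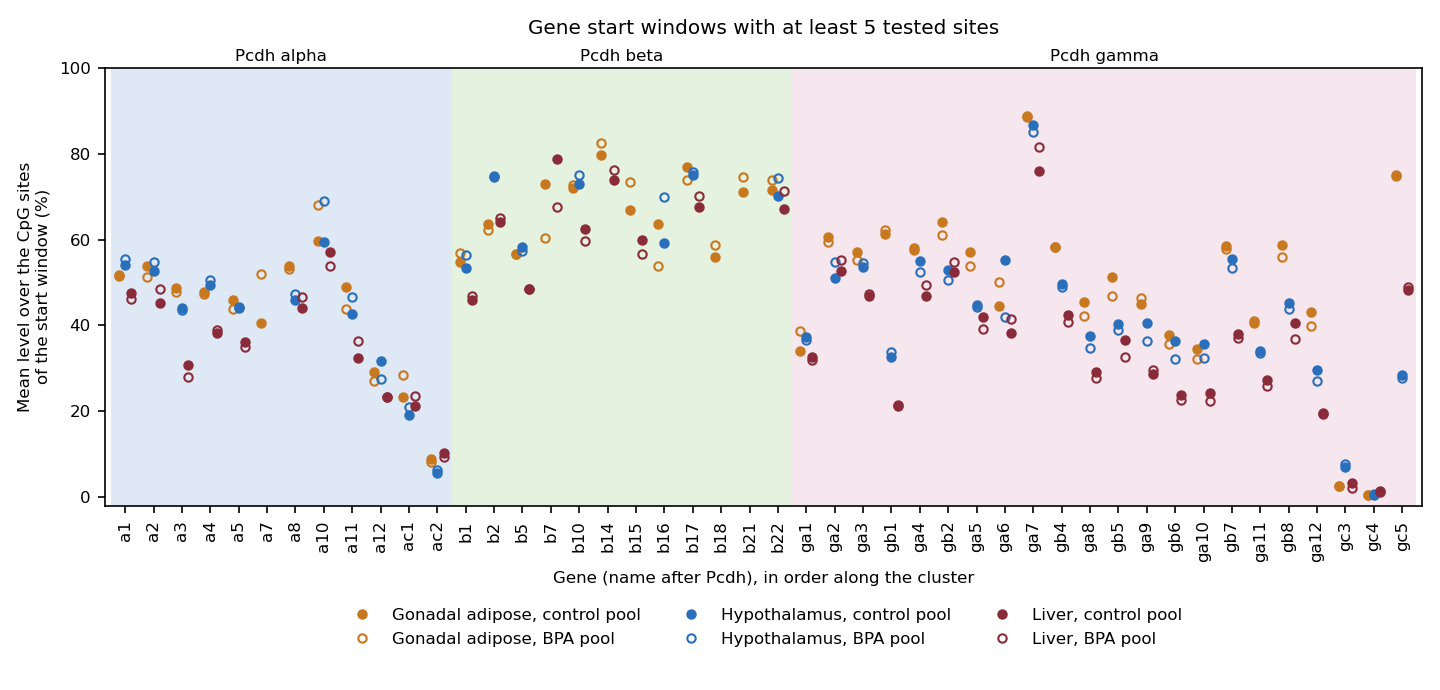
Mean methylation level (%) over the tested CpG sites of each gene start window with at least 5 sites, in order along the cluster. Filled points are control pools and open points BPA pools. Pcdhga7 stands highest in adipose tissue and hypothalamus and Pcdhb7 in liver, Pcdhgc4 lowest in each tissue, and Pcdhgc5 shows the widest gap between tissues.

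Methylation was lowest near the gene start in gamma and beta and highest between 500 and 1500 bp from it. In gamma without the C-type genes the mean control level in the first 500 bp was 29.5% in adipose tissue, 25.5% in hypothalamus and 19.2% in liver. From 500 to 1000 bp it was 53.0%, 49.8% and 40.7%, and from 1000 to 1500 bp it was 66.1%, 61.0% and 49.9%. Beyond that it was lower again, at 62.2%, 45.5% and 44.4% from 1500 to 2000 bp and 54.2%, 46.9% and 43.8% from 2000 to 2500 bp. Beta went from 41.9%, 44.8% and 38.6% in the first 500 bp to 79.0%, 80.04% and 69.9% in the next, but the first of these bins is thin, with 26, 19 and 18 sites. Adipose beta sites then stood at 77.0%, 72.1% and 61.8% in the 3 bins up to 2500 bp. Alpha had 44.8%, 44.6% and 37.3% in the first 500 bp, a lower 43.2%, 40.4% and 30.9% in the next, and 58.9%, 57.9% and 51.7% from 2000 to 2500 bp. The bins hold different genes, so a step between bins can also reflect which genes have MspI fragments there.

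**Figure D3:**
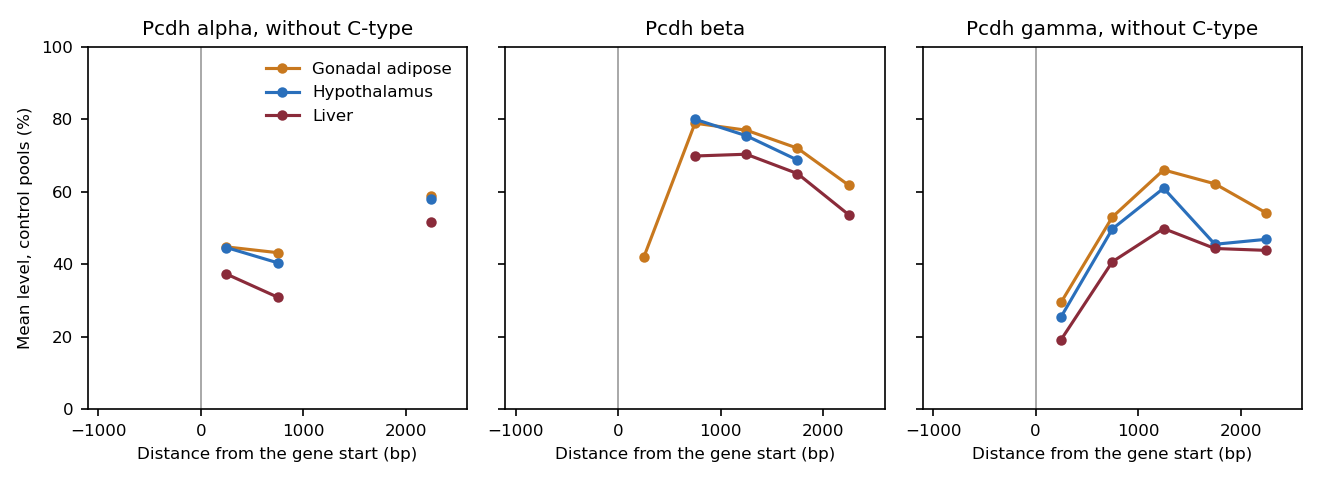
Mean control level (%) in 500 bp bins by distance from the gene start (bp), for the 3 families and 3 tissues, with bins under 20 sites left out and C-type genes excluded. In gamma the level climbs from 29.5%, 25.5% and 19.2% in the first 500 bp to 66.1%, 61.0% and 49.9% from 1000 to 1500 bp and is lower beyond.

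The control pools of the tissues were compared site by site with Fisher's exact test, with Benjamini-Hochberg adjustment over every nuclear site compared. Calls needed an adjusted p below 0.05 together with a gap of 5 percentage points or more. The backgrounds given cover all nuclear sites and are not matched for level, and a larger share of the cluster lies at 20% to 80%. Between adipose tissue and liver 407 of 1410 cluster sites were called, 28.9%, beside 16.5% of all nuclear sites. Of these, 394 were lower in liver, where 8.05% of all nuclear sites were called lower. Lower calls were thus 96.8% of the calls in the cluster and 48.9% of the calls over the genome. Between hypothalamus and liver 274 of 1307 sites were called, 21.0%, beside a background of 16.9%. There 239 were lower in liver (background 11.2%), or 87.2% of calls against 66.1% over the genome. Between adipose tissue and hypothalamus 156 of 1375 sites were called, 11.3%, beside 12.9% of all sites, and 109 of them were lower in hypothalamus (background 3.79%).

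The gamma stretch carried most of this. Of its 733 sites compared between adipose tissue and liver, 290 were called and 287 of these were lower in liver, with a median difference over all 733 of -11.0 percentage points. In beta 40 of 183 sites were called, all 40 lower in liver, and in alpha 65 of 382, with 55 lower. Between adipose tissue and hypothalamus gamma had 113 of 685 called, 87 lower in hypothalamus, while beta had 5 of 192 and alpha 33 of 385. Each tissue is also its own table and set of libraries, which cannot be told apart from tissue here.

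The BPA pools, made from other animals, gave 395 calls between adipose tissue and liver (380 lower in liver), 293 between hypothalamus and liver (257 lower) and 177 between adipose tissue and hypothalamus (114 lower in hypothalamus). Of the 407 sites called between control adipose tissue and liver, 258 were also called the same way in the BPA pools, and these are 258 of the 395 called there. The corresponding counts were 173 of 274 and of 293 for hypothalamus and liver, and 92 of 156 and of 177 for adipose tissue and hypothalamus. Over all nuclear sites the BPA pools gave 257229 calls between adipose tissue and liver. They gave 252403 between hypothalamus and liver and 212521 between adipose tissue and hypothalamus. How many calls repeated over all nuclear sites was not computed, so the repeat is not shown to be particular to the cluster.

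Over sites tested in all tissues, liver had the lowest mean of the 3 control pools in 34 of 34 windows outside the C-type genes, and in 34 of 34 in the BPA pools. The margin was small in some. Pcdha10 stood at 59.7%, 59.4% and 57.1%, over 7 sites, and Pcdhga1 at 34.1%, 37.2% and 32.6%. The widest ranges outside the C-type genes were in gamma. Pcdhga12 had 43.4% in adipose tissue, 29.6% in hypothalamus and 19.6% in liver over 23 sites, of which 22 were called lower in liver than in adipose tissue and 15 lower in hypothalamus than in adipose tissue. Pcdhgb7 had 58.5%, 55.5% and 37.9% over 16 sites, so that here liver stood apart from both other tissues. Pcdhgb8, annotated as a transcribed pseudogene, had 57.3%, 46.4% and 39.8%, and Pcdhga5 had 49.6%, 44.7% and 32.5%.

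The C-type genes did not follow this order: in none of the 5 was liver the lowest control pool. In the BPA pools liver was the lowest at 1 of them, Pcdhgc3 (2.51% in adipose tissue, 9.04% in hypothalamus and 1.88% in liver). Pcdhgc5 had the widest range of all 39 windows, with 71.3% in adipose tissue, 28.5% in hypothalamus and 48.3% in liver over 21 shared sites, and 71.4%, 27.8% and 49.0% in the BPA pools. Of 21 sites tested between adipose tissue and hypothalamus, 20 were called and all 20 were lower in hypothalamus. Between adipose tissue and liver 16 of 21 were called, all 16 lower in liver, and between hypothalamus and liver 11 were higher and 3 lower in liver. In the first 500 bp the 3 control levels were 68.4%, 13.7% and 60.1% over 7 sites, so that close to the start liver lay near adipose tissue. From 2000 to 2500 bp they were 71.3%, 43.2% and 39.4%, where liver lay near hypothalamus.

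The site of Pcdhgc5 with the largest gap to hypothalamus was at 37819858, 312 bp after the annotated start. It was methylated in 77.5% of 204 reads in control adipose tissue, 15.3% of 144 reads in hypothalamus and 76.0% of 171 reads in liver. Hypothalamus minus adipose tissue was -62.2 percentage points (95% Newcombe interval -69.4 to -53.0, Fisher's exact test, adjusted p = 2.8e-29). Liver minus hypothalamus was 60.7 points (51.1 to 68.4, Fisher's exact test, adjusted p = 1.98e-26).

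**Figure D4:**
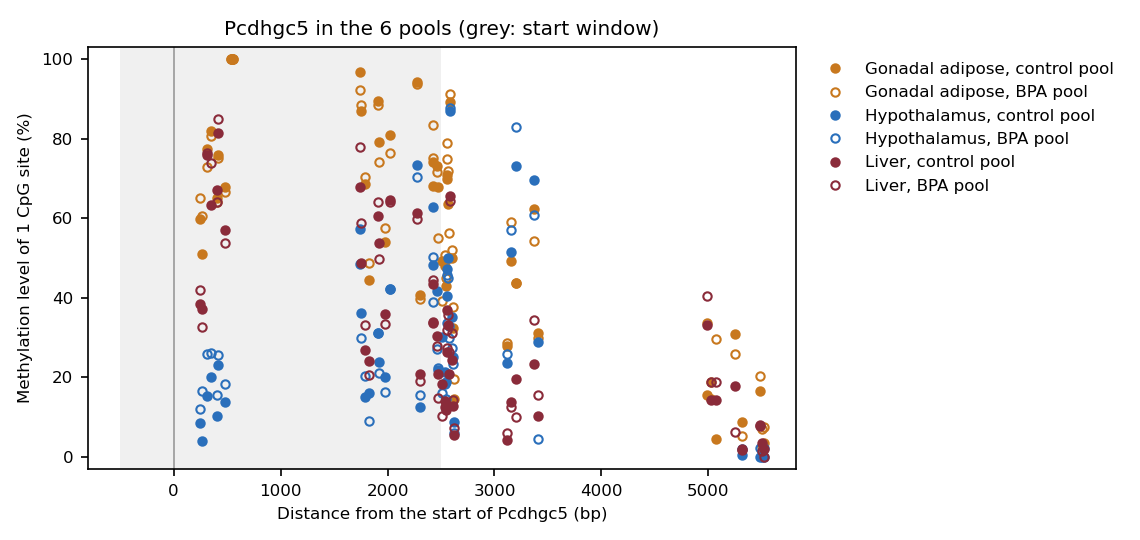
Methylation level (%) of single CpG sites against distance from the start of Pcdhgc5 (bp) in the 6 pools, with the start window in grey. In the first 500 bp the hypothalamus pools lie at the bottom, with control sites from 4.17% to 23.2%, below the adipose sites (50.9% to 81.8%) and the liver sites (37.3% to 81.3%).

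The windows of Pcdhgc4, Pcdhgc3 and Pcdhac2 averaged at most 10.3% in the control pools. Pcdhgc4 had 0.541% in adipose tissue, 0.465% in hypothalamus and 1.44% in liver over 18 shared sites. Pcdhgc3 had 2.24%, 8.08% and 2.65% over 79 sites and was the highest in hypothalamus: 21 of its 99 sites compared with adipose tissue were called, all 21 higher in hypothalamus. The gap was wide away from the start, with 6.95%, 19.9% and 5.71% from 1000 to 1500 bp, and small in the first 500 bp, with 0.303%, 1.14% and 0.877%. Pcdhac2 had 1.45%, 0.361% and 2.25% in the first 500 bp and 29.5%, 19.3% and 27.0% from 1000 to 1500 bp.

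Pcdhac1 had nearly equal window means (19.9%, 19.2% and 21.3% over 44 shared sites) but a different shape in hypothalamus. In the first 500 bp the control levels were 25.5%, 13.1% and 25.8%, and from 1000 to 2500 bp they were 41.7%, 62.2% and 38.5%. Of 44 sites compared between adipose tissue and hypothalamus, 7 were called higher and 10 lower in hypothalamus. At 37090398, 262 bp after the start, 62.8% of 538 reads were methylated in control adipose tissue, 21.6% of 402 in hypothalamus and 66.7% of 592 in liver. The difference between hypothalamus and adipose tissue was -41.2 points (-46.6 to -35.2, Fisher's exact test, adjusted p = 2.05e-34).

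For comparison, the start windows of 8 non-clustered protocadherins, single genes of the same superfamily elsewhere in the genome, had median control levels of 1.495% in adipose tissue, 0.532% in hypothalamus and 1.74% in liver, and none exceeded 5.80% (Pcdh8 in liver). They came from 12 listed genes, of which 9 had a strand in the reference and 8 enough sites. Pcdhgc4 did not exceed the highest of them in any tissue, nor did Pcdhgc3 in adipose tissue and liver, but Pcdhgc3 did in hypothalamus (7.13%, where Pcdh20 was the highest non-clustered window at 2.88%). This is a description without a test.

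A count of stretches below 20% in all 3 control pools (at least 5 shared sites with gaps of at most 500 bp) was made after these values were seen. It gave 12 runs, 7 of them in C-type windows. The longest covered 1065 bp and 53 sites at Pcdhgc3. In 2 cases the run lay in no window. At 37218164 to 37218389, 29267 bp past the end of the alpha genes, 11 sites had 1.56% in adipose tissue, 0.399% in hypothalamus and 2.39% in liver. At 37655558 to 37655667, 6108 bp before the first gamma gene, 7 sites had 5.98%, 4.29% and 5.98%. An enhancer is known downstream of the alpha genes, and whether the first of these runs has any part in it was not tested.

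The other genes inside the region were hardly covered. Taf7, a subunit of the general transcription factor TFIID, had 25 adipose sites with a mean of 0.679% and 10 hypothalamic sites at 0%, and none tested in liver. Slc25a2, a mitochondrial carrier gene, had no tested site. Beside the pseudogene Gm8242, 4 sites had 85.2%, 87.4% and 83.9%.

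Prenatal BPA exposure came with few called sites in the cluster. In adipose tissue 16 of 1658 sites were called between the BPA and control pools, 0.965%, beside 0.535% of all nuclear sites. Higher methylation in BPA was called at 7 (0.422% against a background of 0.252%) and lower at 9 (0.543% against 0.283%). Among sites at 20% to 80% in control, which have more room to move, 11 of 874 were called, 1.26%, beside 1.20% of all such sites, so at like levels the cluster's share was near the background. Scaling the p-values by the spread of all adipose sites between pools, 2.02 times that of counting alone, left none of the 16 (0 sites). In the cluster that spread was 2.08.

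No cluster site was called in hypothalamus by Fisher's exact test with Benjamini-Hochberg adjustment, where 0.00580% of all nuclear sites were, and 81 of 1334 sites had an unadjusted p under 0.05 (6.07%, beside 3.41% of all sites). By the authors' deposited table, a total of 34 sites (2.55%) had a credible difference of at least 5 points in either direction, beside 0.858% of all nuclear sites. That rule, which carries no adjustment over sites, took 92 cluster sites in adipose tissue in the authors' deposited table (5.55%, beside 2.99%) and 38 in liver (2.71%, beside 0.995%). None of these shares was matched for level. In control hypothalamus 50.7% of cluster sites lay at 20% to 80%, beside 18.4% of all nuclear sites. In liver 2 of 1403 sites were called, 0.143%, beside 0.0259% of all sites. Both lay at 20% to 80% in control, where 772 cluster sites gave 0.259% and all such sites 0.0934%. With p-values scaled by the spread of all liver sites, 1.24 times that of counting alone, 1 site passed, which was higher in BPA. In the cluster that liver spread was larger, at 1.58, and scaling by it was not done.

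The alpha family had 3 of the adipose calls, of 434 sites tested, all higher in BPA, and 1 of the liver calls, of 382. Over all nuclear adipose sites 0.252% were called higher and 0.283% lower. The families differ in the number of sites tested and were not compared by a test. At Pcdhac2, 1086 bp after the start (37144764), 3.72% of 349 reads were methylated in the control and 16.4% of 383 in the BPA pool of adipose tissue, a difference of 12.7 points (8.50 to 17.05, Fisher's exact test, adjusted p = 5.85e-05). The pools of the other tissues stood close together there, at 7.46% and 6.01% in hypothalamus and 8.23% and 8.01% in liver. At Pcdha4 (36953369) the level was 8.47% of 59 control reads and 40.4% of 47 BPA reads in adipose tissue (32.0 points, 15.8 to 47.0). In liver it was 30.8% and 16.1%, from 26 and 31 reads.

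Pcdhac1 held calls in both adipose tissue and liver, at sites 23 bp apart. At 37090466 the adipose pools had 6.68% of 539 and 13.9% of 548 reads (7.19 points, 3.6 to 10.8, Fisher's exact test, adjusted p = 0.0291). The liver pools had 5.89% of 628 and 12.1% of 572 reads there, an adjusted p of 0.247 by the same exact test, and the hypothalamus pools 8.90% and 9.83%. At 37090489 the liver pools had 24.3% of 618 and 40.3% of 558 reads (16.1 points, 10.7 to 21.3, Fisher's exact test, adjusted p = 5.33e-05). The adipose pools had 28.0% and 28.7% at that site and the hypothalamus pools 17.6% and 18.1%. Over the first 500 bp of Pcdhac1 the mean was 25.5% in control and 35.4% in BPA over 25 adipose sites. Most of that gap came from 6 adipose sites not tested in the other tissues, with 14 to 25 reads per pool and means of 31.0% and 63.7%. The other 19 sites had 23.7% and 26.5% in adipose tissue, 13.1% and 14.7% in hypothalamus, and 25.8% and 29.9% in liver.

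The beta family had 4 adipose calls of 238 sites tested, 2 in each direction. At Pcdhb7 (37343458) 87.0% of 23 control reads and 17.9% of 28 BPA reads were methylated (-69.1 points, -82.2 to -43.0). At Pcdhb16 (37477839) the levels were 48.1% of 54 and 10.4% of 67 reads (-37.7 points, -51.7 to -21.7). At Pcdhb22 (37520282) they were 35.7% of 42 and 77.9% of 68 reads (42.2 points, 23.4 to 57.4). These 3 rest on few reads. Pcdhb17 (37486052) was deeper, with 83.7% of 589 and 91.5% of 682 reads (7.79 points, 4.18 to 11.5), and had 85.3% and 85.8% in hypothalamus and 79.1% and 77.3% in liver.

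The gamma family had 9 adipose calls of 837 sites tested, 7 of them lower in BPA. Gamma is the family with the most tested sites, and its directions were not tested against those of all sites. At Pcdhga10 there were 2: 63.1% of 317 and 44.0% of 359 reads at 37748260 (-19.1 points, -26.3 to -11.6, Fisher's exact test, adjusted p = 0.00185), and 37.5% of 355 and 23.2% of 383 reads at 37747478 (-14.2 points, -20.7 to -7.60). At Pcdhga12 (37766795) the levels were 69.4% of 314 and 51.2% of 320 reads (-18.2 points, -25.5 to -10.6, Fisher's exact test, adjusted p = 0.00476). Pcdhgb4 (37722221) had 59.4% of 32 and 10.0% of 30 reads. The 3 calls at Pcdhgb5 were all lower, and those at Pcdhga3 (37674593, 34.8% of 319 and 49.0% of 359 reads) and in the shared 3' end of the family (37837183, 42.9% of 28 and 90% of 30 reads) were higher. The liver call in gamma was also at Pcdhga3, 86 bp further on (37674679), and was lower in BPA: 22.7% of 666 and 12.9% of 628 reads (-9.77 points, -13.9 to -5.62, Fisher's exact test, adjusted p = 0.0168).

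The calls were scattered. The smallest gap between 2 called adipose sites was 261 bp, and none of the 16 had another within 100 bp. In 6 of the 16 a pool had fewer than 50 reads. Sites within 100 bp of a called site did not always share its sign: at Pcdhga12 14 of 16 neighbours had the same sign, with a median difference of -3.98 points, and at Pcdhac2 3 of 8, with a median of -1.37 points.

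Window means differed little between the pools. Of 46 adipose windows 38 differed by less than 5 points between the pools, as did 37 of 40 in hypothalamus and 40 of 42 in liver. Windows higher and lower in BPA numbered 20 and 26 in adipose tissue, 20 and 20 in hypothalamus and 20 and 22 in liver. The largest adipose differences were -12.5 points at Pcdhb7, 11.4 at Pcdha7 and -9.78 at Pcdhb16, windows with median depths of 23, 20 and 41.5 control reads. In hypothalamus they were -13.3 at Pcdhga6, 10.6 at Pcdhb16 and 9.47 at Pcdha10, at 16, 22.5 and 33 reads. Pcdhb16 thus had opposite signs in these 2 tissues. In liver they were -11.2 at Pcdhb7, over 5 sites, 5.73 at Pcdhga7 and 4.19 at Pcdhb22. These windows have no test.

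**Figure D5:**
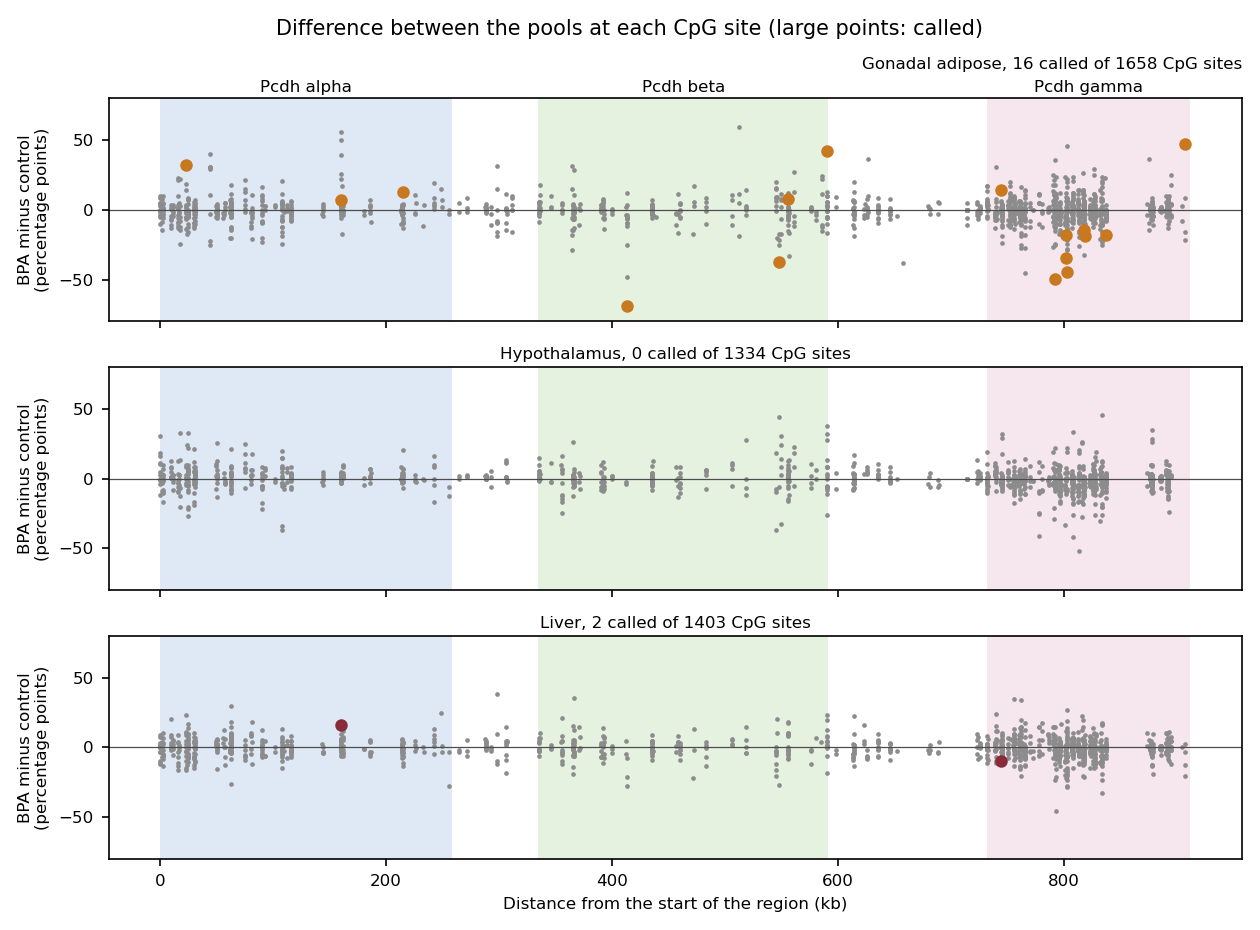
BPA minus control (percentage points) at each tested CpG site against distance from the start of the region (kb), 1 panel per tissue, with called sites as large points. The 16 adipose calls and the 2 liver calls lie apart from each other, and no hypothalamic site was called.

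Whether the BPA difference itself varied between tissues was tested on log odds ratios (two-sided Wald test across all nuclear sites, Benjamini-Hochberg). Of 1389 cluster sites tested for adipose tissue against liver 1 passed (0.0720%, beside 0.0493% of all sites), the Pcdhga12 site at 37766795, and 161 had an unadjusted p under 0.05. At that site the log odds ratio (natural log) was -0.77 in adipose tissue and 0.29 in liver, with an adjusted p of 0.0457. None of 1321 passed for adipose tissue against hypothalamus, where 0.0266% of all sites passed and 105 cluster sites had an unadjusted p under 0.05, and none of 1245 for hypothalamus against liver, where 0.00375% of all sites passed and 95 cluster sites had such a p. The other calls above are therefore not shown to be peculiar to the tissue they were made in. For the counts under an unadjusted p of 0.05 the share over all nuclear sites was not computed. No excess in the cluster can be read from them.

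Known regulators of the cluster were read over their gene bodies, 20 genes that include Ctcf, the cohesin subunit Rad21, the loader Nipbl, the methyltransferases Dnmt3a and Dnmt3b and the repressor Smchd1. Their median control level was 31.0%, 26.6% and 25.9% in the 3 tissues. In adipose tissue their 2224 sites gave 4 calls towards higher and 3 towards lower levels, in the 5 genes Nipbl, Dnmt3a, Uhrf1, Tet3 and Wiz, which is 0.315% beside the 0.535% of all nuclear sites. In hypothalamus none of 1931 was called, and in liver 1 of 1865 (0.0536%, beside 0.0259%), in Dnmt3a, which was lower.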

How the data were processed

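Reduced representation bisulfite libraries were made from 100 ng of DNA cut with MspI, per the labels' protocols, and aligned with BSMAP to GRCm38 (mm10), per the submitters' processing notes. Its version and any removal of PCR copies are not given in the sources used here. The authors deposited 1 table per tissue that pools the 3 samples of each group. Per the file headers these hold the deposited read counts per CpG, the methylation fraction, rounded to 3 significant digits, Fisher's exact p-values between the pools and the authors' credible difference. Recomputing p from counts and fractions gave values within 2% of the deposited p for 99.8% or more of 5000 sites per tissue.

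Positions were printed 1-based: the file position plus 1 was the C of a CpG at 100% of 6458 promoter sites on chromosome 19. The deposited p was adjusted (Benjamini-Hochberg) across every nuclear site that had 10 or more reads in both pools, and sites were called at an adjusted p under 0.05 and a difference of at least 5 percentage points. Control pools were compared between tissues by Fisher's exact test computed here (numba 0.67.0), and log odds ratios by a Wald test with 0.5 added to each cell. Differences have Newcombe intervals of 95%. The calling steps were tested on simulated reads. Because only pools were given, the logistic test per sample was not run, and no test measures the spread between animals.

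Gene positions are those of RefSeq on GRCm38.p6. Sites named in the text are all calls, or the 6 smallest adjusted p in each direction beyond 12 calls in a tissue, and the windows named are the 3 highest and 3 lowest of each family, the C-type genes, the 5 with the widest tissue range, the 3 with the largest pool difference in each tissue, and other genes in the region. The members and lists were chosen with earlier results of these data known. Alternatives were other read minimums and minimum differences, leaving out the deepest 0.1% of sites, p scaled by the excess spread, the credible difference, read-weighted levels and other windows. No sequence is printed.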

Additional observations from a re-analysis of the deposited data

Results flagged for a closer look

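The CpG site of Pcdhga12 at 37766795 was the one member to pass a test of the BPA difference between tissues, in adipose tissue against liver. That is 1 of 1389 cluster sites tested (0.0720%), beside 0.0493% of all sites. In adipose tissue the level was 69.4% in the control and 51.2% in the BPA pool, in hypothalamus 55.0% and 45.1%, and in liver 25.8% and 31.8%. The Wald test of adipose tissue against liver gave an adjusted p of 0.0457 over all 1615315 nuclear sites tested. It covers the counting of reads only and was not scaled by the excess spread, a scaling that left no adipose call. Against hypothalamus the adjusted p was 0.985 for adipose tissue and 1 for liver. The site is also the one in the Pcdhga12 window with the largest control difference between hypothalamus and liver, -29.2 points (-37.5 to -20.3).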

How the results depend on the processing

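No paired analysis was possible because the tables give only pools, and leaving out single samples was not possible for the same reason. Scaling p by the excess spread changed the BPA counts to 0 called sites in adipose tissue, 0 in hypothalamus and 1 in liver. The authors' credible difference of at least 5 points in the deposited table, which has no adjustment over sites, gave 92, 34 and 38, beside 56171, 13458 and 16209 over all nuclear sites. Requiring 10 points left 1 liver site. The other alternatives kept the counts within 1.5 times: adipose tissue 11 to 16, hypothalamus 0 and liver 2, and the tissue comparisons 135 to 163, 362 to 413 and 227 to 284. The BPA pools in place of the control pools, an alternative chosen after seeing the data, gave 177, 395 and 293. Read weighting turned beta, hypothalamus minus adipose tissue, from 2.12 to -1.74 percentage points. Liver was the lowest control pool in 33 of 34 windows outside the C-type genes with read weighting, in 32 of 34 with all tested sites and in 28 of 29 with 1000 bp either side of the start. Window and stretch levels, and stretch differences between tissues, depend on which sites are averaged. A level counted as moved beyond the plus or minus margin of its counting interval, and a difference beyond 1 percentage point. With read weighting 46 of 75 moved and 1 more reversed, and with shared sites only 30 of 75 moved. With 1000 bp either side of the start 37 of 46 moved, and with 250 bp before to 50 bp after it 15 of 16. Within 1000 bp either side, Pcdhac2 had 1.80%, 0.721% and 3.26%, Pcdhgc3 1.06%, 2.12% and 1.53%, and in hypothalamus Pcdhac1 8.21% and Pcdhgc5 13.7%. From 250 bp before to 50 bp after, Pcdhac1 had 3.15%, 2.29% and 6.28%, Pcdhgc3 0.123%, 0.244% and 1.13%, and Pcdhb2 in adipose tissue 35.9%. In the hypothalamus beta stretch a median depth of 49.5 reads limits what a single site can show.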

Other observations

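Marker lists for other cell types that the tissues could hold were read over gene bodies. Median control levels for oligodendrocyte genes were 82.2% in adipose tissue, 65.8% in hypothalamus and 62.8% in liver, for astrocyte genes 47.6%, 51.1% and 51.2%, for leukocyte genes 60.6%, 56.7% and 62.4%, and for endothelial genes 70.0%, 84.2% and 73.2%. Genes of epididymis and testis, organs next to the gonadal fat, had 77.8%, 86.0% and 81.95%. Hepatocyte genes stood at 75.3%, 81.7% and 43.7%, adipocyte genes at 47.4%, 78.0% and 64.0% and neuronal genes at 47.1%, 36.4% and 38.8%. Oligodendrocyte genes read 82.2% in the control and 76.0% in the BPA pool of adipose tissue, with 5 sites called lower in 2 genes, and 65.8% and 64.8% in hypothalamus. The part of cell mix in the values of the protocadherin cluster was not tested.

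At sites elsewhere in the genome that were under 1% methylated in both other tissues, a check of unconverted reads, the control and BPA pools read 0.459% and 0.460% in adipose tissue, 0.459% and 0.868% in hypothalamus, and 0.755% and 0.578% in liver. The control levels of Pcdhgc4 to set beside these were 0.541%, 0.465% and 1.44%.

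Behind the last gamma start window 20 sites were tested in all tissues, all from 2510 to 5522 bp after the start of Pcdhgc5. They lie near the start window of that gene, so the far 3' end of the family is not described by them. Their control level was 41.3% in adipose tissue, 32.2% in hypothalamus and 17.9% in liver, and 43.7%, 29.4% and 18.2% in the BPA pools. Behind the last alpha start window, over 14 shared sites, the control level was 49.5%, 56.0% and 48.4%.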
